A study of Homo sapiens with 4 samples.

Results

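Ribosome biogenesis and nucleolar genes were examined in HCT116, a human colorectal carcinoma cell line, in cultures transfected for 36 h with a non-targeting siRNA (si-NC) or with siRNA against the long noncoding RNA LINC00152 (si-152), each at 100 nM. Each group held 2 libraries, labelled as biological replicates 1 and 2, and both groups received the same transfection, so the comparison is of siRNA against siRNA in 1 cell line. The list held 59 genes, chosen by their function in ribosome assembly after the lower value of NCL in these same libraries had been seen. The values of NCL therefore selected the list, and they are given as a description with no test. All 59 symbols were found among the 19974 rows of each table, and all 59 were at 1 FPKM or more in every library, from 1.82 to 1292 FPKM. The values are read as FPKM, a unit that was inferred, which counts fragments scaled to transcript length and to sequencing depth. Comparisons of level between genes rest on that reading and are approximate. Differences between replicates moved with transcript length, as given below.

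Ribosomes are built mainly in the nucleolus. RNA polymerase I transcribes the long ribosomal RNA precursor, small nucleolar ribonucleoproteins (snoRNPs) modify it, a large processome folds and cuts the part that becomes the 40S subunit, and a separate set of helicases, GTPases and scaffold proteins assembles the 60S subunit. Cancer cells, those of the colon included, commonly make ribosomes at a high rate, and MYC is a well-known activator of the genes involved.

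The libraries held 14589 to 14686 genes above 0, with summed values of 424754 to 534311 FPKM, and the number of reads behind them is unknown. The targeted RNA, LINC00152, was not analysed here, and no check of the knockdown is given. All 6 epithelial markers examined were present, at 20.7 to 1378 FPKM, with summed levels of 3232 to 3757 FPKM in si-NC and 2544 to 3175 FPKM in si-152. None of the 4 blood cell markers reached 1 FPKM, and of the 5 fibroblast and endothelial markers only COL1A1 did, at 7.02 to 7.98 FPKM. The group difference was taken on log2(FPKM + 1) with limma over the 11222 genes that reached 1 FPKM in 2 libraries or more. On that scale the median of all genes tested was 0.02, and differences of low genes are understated.

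The question was whether the lower level of NCL was shared by the genes that work beside it. It was not shared by most of them. Over all 59 genes the median log2 difference, si-152 minus si-NC, was 0.08, and it was 0.06 with size factors and 0.09 with quantile normalization. In all, 36 genes were on the higher side and 23 on the lower side, where 6085 and 5137 of all 11222 genes tested were. The sign of 5 of the 59 (NPM1, NOP10, DDX47, NOP2 and EBNA1BP2) depended on the scaling. Of the 58 genes other than NCL, 3 had an unadjusted p under 0.05 by limma (5.17%), against 4.38% of all genes tested. The 2 on the higher side were NOLC1 and TCOF1, against 1.89% of all genes, and the 1 on the lower side was FBL, against 2.5%. None of the 58 passed adjustment over all genes, and 2 of the 11222 genes did (0.0178%). The lowest adjusted p among the 58 was 0.760 by limma, for NOLC1. These shares lie close to the background. The member median was -0.0045 without si-NC replicate 2 and -0.04 without si-152 replicate 2, so its sign depended on those libraries. The count of 3 was 1 without si-NC replicate 2 and 5 without si-NC replicate 1. FBL passed adjustment over all genes in each fit that kept si-NC replicate 2 and dropped another library.

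**Figure D1:**
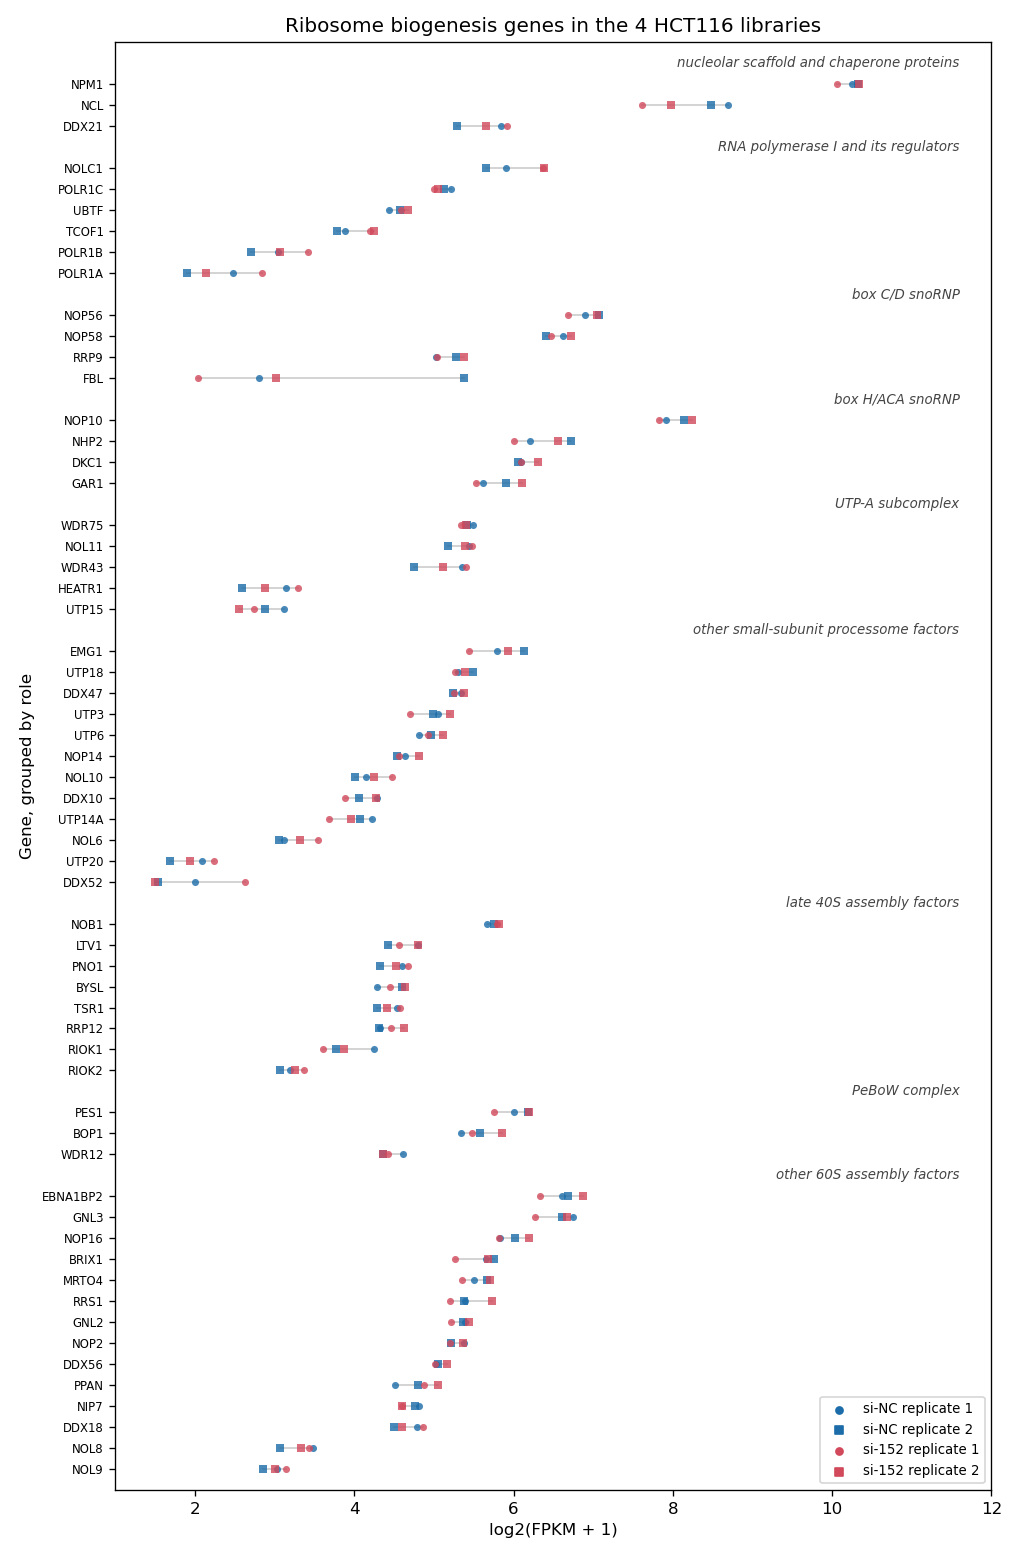
Level of each of the 59 genes in each library, as log2(FPKM + 1) on the horizontal axis, with genes grouped by role and ordered by mean level within each role. Circles are replicate 1 and squares replicate 2, blue is si-NC and red is si-152. NPM1 and NCL lie farthest to the right, NCL has both red points left of both blue ones, and the widest line belongs to FBL (3.09 to 40.6 FPKM).

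NCL encodes nucleolin, an abundant nucleolar protein that binds ribosomal RNA and takes part in its transcription and processing. It lies on the minus strand at chr2:231453531-231483641 of GRCh38. Replicates 1 and 2 of si-NC held NCL at 413 and 355 FPKM, and those of si-152 held it at 195 and 251 FPKM. Both si-152 libraries were below both si-NC libraries, with group means of 384 ± 41.5 and 223 ± 40.1 FPKM (SD, n = 2). The log2 difference was -0.79, which is 0.578-fold. The same-numbered libraries differed by -1.08 and -0.50, so the gap was larger in replicate 1. Of all genes tested, 52 (0.463%) had a difference at or below that of NCL, and of the 653 genes with a mean of at least 100 FPKM, 5 did, NCL included. NCL supplied 10.7% and 9.04% of the summed FPKM of the 59 genes in si-NC, and 5.82% and 6.26% in si-152. The other 58 genes summed to 3436 and 3569 FPKM in the control and to 3149 and 3760 FPKM under si-152, so their sum overlapped between the groups.

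NCL is also 1 of the 5 members whose longest annotated 3′-UTR holds the word GACTGGA, which an earlier scan of these same libraries had picked out because genes with it lay lower in si-152. That scan used the same differences, so the relation is shown as a description and supports nothing. The windows below run 5′ to 3′ on the transcript strand, read from GENCODE v29 transcripts of GRCh38, with the word in capitals. They are shown because NCL and UTP15, which with FBL had the 3 lowest log2 differences among the members, are among them. The sites lie at chr2:231455002-231455028 (NCL), chr5:73580208-73580234 (UTP15), chr16:69342845-69342871 (NIP7), chr22:30576632-30576658 (PES1) and chr2:86027321-86027347 (POLR1A).
NCL: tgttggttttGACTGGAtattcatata
UTP15: ctgtggaagaGACTGGAataattatgg
NIP7: ttacttacttGACTGGAttggactaaa
PES1: gttattaaatGACTGGActtttgtgcc
POLR1A: aggaccaggaGACTGGAatccagggca

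In NCL the word starts at base 173 of a 3′-UTR of 1660 bases, in the only protein-coding transcript of the basic set. The log2 differences of the other carriers were -0.34 for UTP15, -0.18 for NIP7, -0.12 for PES1 and 0.31 for POLR1A. With NCL, whose values selected the list, 4 of the 5 lay on the lower side. Among all 1259 tested genes with the word, 646 were lower and 613 higher. The median of all 5 was -0.18, against 0.08 for the 54 members without the word. Over the 10756 tested genes with an annotated 3′-UTR, 1259 (11.7%) held the word, with a median of -0.0087, against 0.02 for those without it. The share among members was 8.47%. FBL, the member with the lowest difference, did not hold it.

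The remaining genes for nucleolar scaffold and chaperone proteins, NPM1 and DDX21, overlapped between the groups. NPM1, nucleophosmin, a chaperone and scaffold of the granular part of the nucleolus, was the highest of the 59 genes, at 1222 and 1279 FPKM with si-NC, against 1066 and 1292 FPKM with si-152. Its groups overlapped, with a log2 difference of -0.09 (standard error 0.30) that turned to 0.12 with quantile normalization. NPM1 has 45 annotated pseudogenes named after it and NCL has 2, and how shared reads were divided is not known. The ratio of NCL to NPM1 was 0.338 and 0.277 in si-NC and 0.182 and 0.194 in si-152, so it was lower in both si-152 libraries. DDX21, an RNA helicase that links polymerase I transcription to RNA processing, had a log2 difference of 0.22 (standard error 0.21) and overlapping groups.

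Of the 6 polymerase I genes, 5 were higher in both same-numbered comparisons, where 35.6% of all genes tested were, and POLR1C was lower in both. In the fit with a group term only and all 4 libraries, only NOLC1 and TCOF1 had an unadjusted p under 0.05 by limma. The median log2 difference of 0.34 was 0.32 with size factors and 0.30 with quantile normalization. NOLC1 (Nopp140), a phosphoprotein that binds snoRNPs and polymerase I, was at 58.7 and 49.6 FPKM with si-NC, against 81.4 and 82.2 FPKM with si-152. Both si-152 libraries were well above both si-NC libraries, and the si-152 values lay close together. The log2 difference, by limma, was 0.59 with a standard error of 0.17 (1.51-fold, adjusted p = 0.760), so it did not pass adjustment over all genes. TCOF1 encodes treacle, a nucleolar phosphoprotein related in its repeats to NOLC1 and needed for ribosomal RNA transcription. It was at 13.8 and 12.8 FPKM with si-NC, against 17.4 and 18.1 FPKM with si-152, again with no overlap. Its log2 difference was 0.39 (standard error 0.17, adjusted p = 1.0 by limma). When single libraries were omitted, the difference of NOLC1 ran from 0.47 to 0.71 and that of TCOF1 from 0.34 to 0.44, and TCOF1 lost its unadjusted p under 0.05 each time, while NOLC1 lost it only without si-NC replicate 2.

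In the fit with a group term only, the polymerase subunits had an unadjusted p of 0.05 or more by limma with all 4 libraries. With a term for the replicate number added, POLR1A and POLR1B were under 0.05. POLR1B, the second largest subunit of the enzyme, was at 7.22 and 5.54 FPKM with si-NC, against 9.67 and 7.38 FPKM with si-152, with a log2 difference of 0.37 (standard error 0.21) and no overlap. That difference was 0.19 without si-152 replicate 1, 0.20 without si-NC replicate 2, 0.53 without si-NC replicate 1 and 0.54 without si-152 replicate 2. POLR1A and POLR1B each had an unadjusted p under 0.05 without si-NC replicate 1. POLR1A, the largest subunit, overlapped between the groups, with 4.55 and 2.72 FPKM with si-NC, against 6.15 and 3.41 FPKM with si-152. Both subunits were lower in replicate 2 than in replicate 1 of each group. POLR1C, a subunit shared with polymerase III, went the other way by sign (-0.15, standard error 0.16), and UBTF, the factor that binds ribosomal DNA repeats, had a difference of 0.12 (standard error 0.16), both without overlap.

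**Figure D2:**
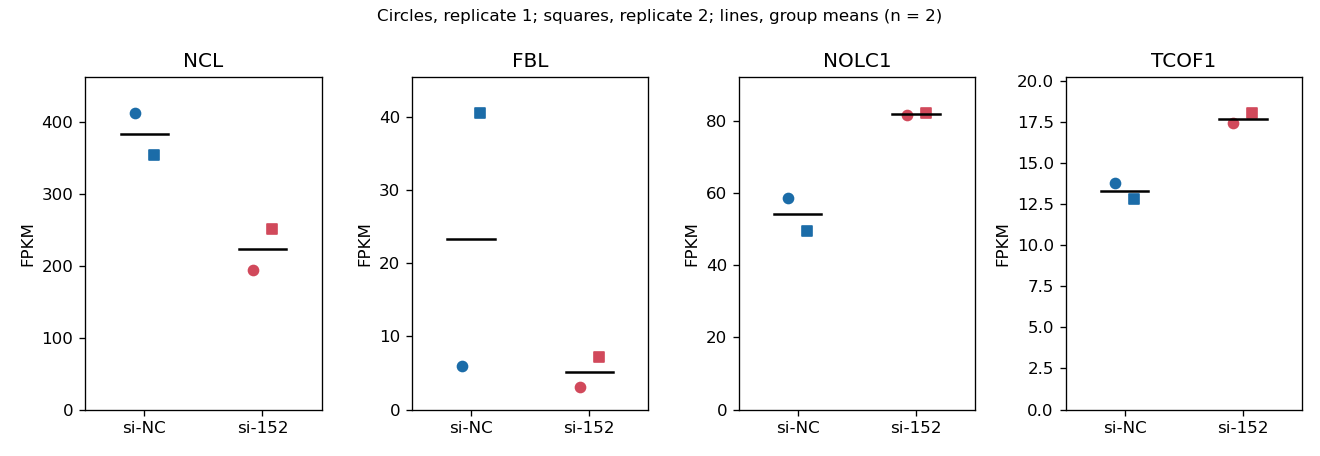
FPKM in each library for NCL, FBL, NOLC1 and TCOF1, with separate vertical axes that start at 0, circles for replicate 1, squares for replicate 2 and lines for the group means (n = 2). The groups do not overlap for NCL, NOLC1 and TCOF1, while for FBL si-NC replicate 2 (40.6 FPKM) stands far above the other 3 libraries (3.09 to 7.11 FPKM).

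Box C/D snoRNPs guide methylation of ribosomal RNA, and their core proteins did not move as a set. FBL, fibrillarin, the methyltransferase of the particle, was at 5.97 and 40.6 FPKM with si-NC, against 3.09 and 7.11 FPKM with si-152. The groups overlapped, because si-NC replicate 1 lay below si-152 replicate 2, and the spread within si-NC was larger than the group difference. The limma estimate of the log2 difference, -1.56 with a standard error of 0.66 and an adjusted p of 1.0, rested on si-NC replicate 2. Without that library it was -0.27. FBL was also low beside its partners: its FPKM was 0.0553 and 0.373 of the mean of NOP56 and NOP58 in si-NC, and 0.0325 and 0.0603 in si-152. NOP56, a scaffold of the same particle, was at 119 and 134 FPKM with si-NC, against 102 and 132 FPKM with si-152. NOP58, its paralogue, had a log2 difference of 0.09 (standard error 0.18), and RRP9, a protein of the U3 particle, one of 0.06 (standard error 0.19). These 3 partners of FBL overlapped between the groups.

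Box H/ACA snoRNPs guide pseudouridylation of ribosomal RNA, and all 4 of their core proteins were close to level. DKC1, dyskerin, the pseudouridine synthase, was at 67.1 and 65.6 FPKM with si-NC, against 67.3 and 78.5 FPKM with si-152, a log2 difference of 0.13 (standard error 0.17) with groups that just failed to overlap. NOP10, the smallest core protein, was the third highest of the 59 genes, at 240 and 281 FPKM with si-NC, against 226 and 302 FPKM with si-152. Its difference of 0.01 (standard error 0.22) was -0.011 with size factors. GAR1 and NHP2 had differences of 0.05 and -0.19, and both were higher in replicate 2 than in replicate 1 of each group.

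The UTP-A subcomplex is the part of the small-subunit processome that first binds the nascent precursor. The 5 of its genes that are on the list split, and CIRH1A, another, is given below. UTP15 was at 7.65 and 6.34 FPKM with si-NC, against 5.70 and 4.89 FPKM with si-152, with no overlap and a log2 difference of -0.34 (standard error 0.20, adjusted p = 1.0 by limma). Quantile normalization gave -0.39, with an unadjusted p under 0.05. WDR75, the highest of the 5, was at 43.8 and 41.5 FPKM with si-NC, against 39.5 and 41.2 FPKM with si-152, a difference of -0.08 (standard error 0.16) without overlap. HEATR1, NOL11 and WDR43 had differences of 0.22, 0.12 and 0.21, each with overlapping groups.

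The other 12 small-subunit processome factors had log2 differences from -0.32 to 0.35, with 7 on the higher side and 5 on the lower. UTP14A, a partner of a processome helicase, was at 17.6 and 15.8 FPKM with si-NC, against 11.9 and 14.5 FPKM with si-152, with no overlap (difference -0.32, standard error 0.18). NOL6 and NOL10 lay on the other side without overlap, with differences of 0.35 (standard error 0.18) and 0.29 (standard error 0.17). EMG1, a pseudouridine methyltransferase and the highest of the 12, was at 54.3 and 69.3 FPKM with si-NC, against 42.5 and 59.8 FPKM with si-152, a difference of -0.28 (standard error 0.21) with overlap. Without si-152 replicate 1 the difference of EMG1 was -0.04, without si-NC replicate 2 it was -0.11, without si-NC replicate 1 it was -0.45, and without si-152 replicate 2 it was -0.52, with an unadjusted p under 0.05. The scaffold protein UTP20, UTP6 and NOP14 had differences of 0.20, 0.13 and 0.10, and UTP3, UTP18 and DDX10 had -0.08, -0.08 and -0.10. The helicase DDX47 had 0.02. DDX52, the lowest of all 59 genes, was at 3.0 and 1.89 FPKM with si-NC, against 5.18 and 1.82 FPKM with si-152, so its difference of 0.30 (standard error 0.34) came from replicate 1.

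Of the 8 factors that act late on the 40S subunit, 7 were on the higher side, with log2 differences from -0.27 to 0.22. NOB1, the endonuclease that makes the final cut of 18S ribosomal RNA, was at 49.8 and 52.8 FPKM with si-NC, against 54.3 and 55.6 FPKM with si-152, a difference of 0.10 (standard error 0.16) without overlap. RRP12, an export factor, and RIOK2, a kinase of the pre-40S particle, also had no overlap, with differences of 0.22 (standard error 0.17) and 0.18 (standard error 0.18). PNO1, BYSL, TSR1 and LTV1 had differences of 0.14, 0.11, 0.08 and 0.06. RIOK1, the related kinase, had -0.27 (standard error 0.21), with -0.63 in replicate 1 and 0.10 in replicate 2. None of the 8 had an unadjusted p under 0.05 by limma with all 4 libraries.

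The genes for factors that assemble the 60S subunit lay on both sides of level. In the PeBoW complex, PES1 was at 63.2 and 71.5 FPKM with si-NC, against 53.1 and 72.1 FPKM with si-152, a log2 difference of -0.12 (standard error 0.19), and WDR12 and BOP1 had -0.09 and 0.20, all with overlap. The other 14 factors had a median of 0.02 and a range of -0.23 to 0.31, with 7 on either side. EBNA1BP2, the highest of them, was at 96.7 and 102 FPKM with si-NC, against 79.6 and 117 FPKM with si-152, so both extremes lay in si-152. GNL3 (nucleostemin), BRIX1 and NIP7 had differences of -0.22, -0.23 and -0.18, and only NIP7 had no overlap. PPAN, at 0.31 (standard error 0.18), had no overlap on the higher side, and it shares its locus with 1 annotated readthrough gene. NOP2, NOP16, RRS1, NOL8, NOL9, MRTO4, GNL2, DDX18 and DDX56 lay between -0.06 and 0.13.

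**Figure D3:**
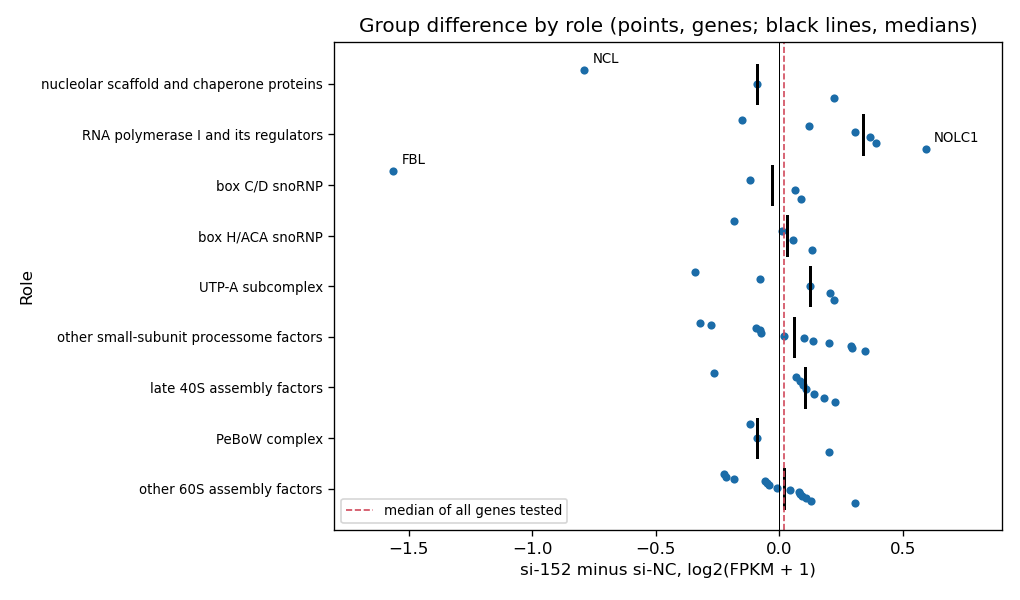
Log2 difference of each gene, si-152 minus si-NC, on the horizontal axis, by role, with black lines for the median of each role and a dashed line for the median of all genes tested (0.02). NCL (-0.79) and FBL (-1.56) stand apart on the left, and the polymerase I genes have the highest median (0.34).

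Both si-152 libraries lay above both si-NC libraries in 11 of the 59 genes, against 16.5% of all genes tested, and below them in 6, NCL included, against 13.9%. With size factors these counts were 8 and 8 (15.9% and 15.7% of all genes), and with quantile normalization 16 and 6 (17.3% and 16.6%). In the same-numbered libraries, 25 members (42.4%) were higher in both comparisons, 12 (20.3%) were lower in both and 22 (37.3%) differed in sign, against 35.6%, 27.3% and 37.0% of all genes tested. The member median was -0.05 in replicate 1 and 0.15 in replicate 2, where the medians of all genes tested were -0.03 and 0.07. With quantile normalization the member medians were 0.03 and 0.09, and with size factors they were -0.02 and 0.07, so the sign in replicate 1 and the size in replicate 2 depended on the scaling. The only member with a difference as low as that of NCL was FBL. The members whose centred values over the 4 libraries were nearest to those of NCL were UTP14A, RIOK1, GNL3, UTP15 and BRIX1, at distances of 0.475, 0.559, 0.577, 0.594 and 0.609 on the log2 scale. NCL was part of the rule, so this order is a description.

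**Figure D4:**
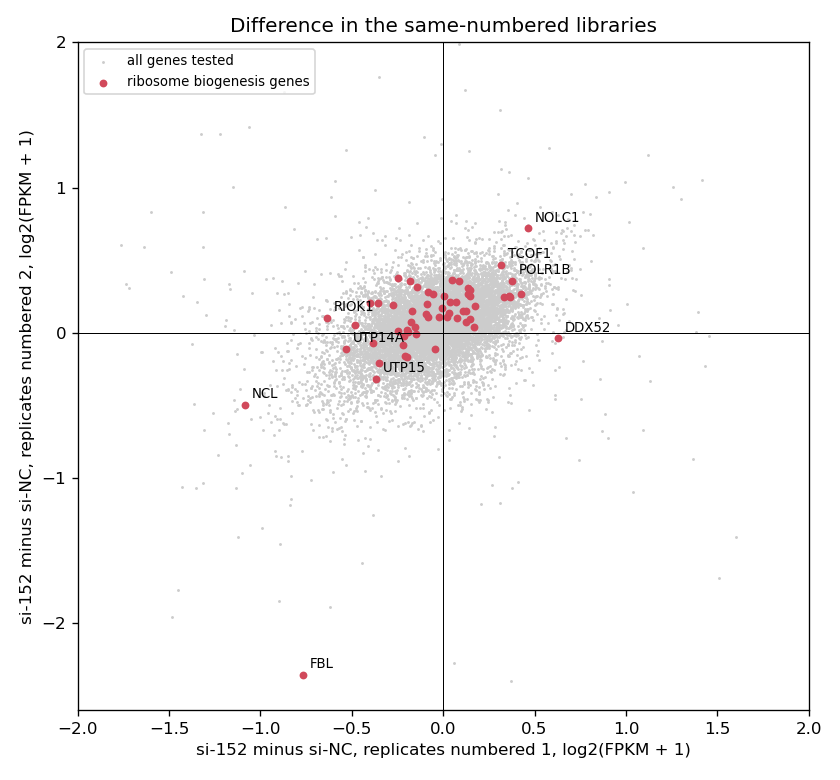
Log2 difference between the libraries numbered 1 (horizontal) and between those numbered 2 (vertical), for all genes tested (grey, within the axis limits) and the 59 ribosome biogenesis genes (red). Of the red points, NCL (-1.08 and -0.50) and FBL (-0.77 and -2.36) had the lowest mean differences, and the others lie among the grey ones. Of all genes tested, 52 had a mean difference at or below that of NCL, NCL included.

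Transcript length moved with both differences. Across the 59 genes, the difference of replicate 2 minus replicate 1, averaged over both groups, had a Spearman correlation of -0.689 with the length of the longest annotated transcript, and it was -0.673 across 10756 annotated genes. Long transcripts such as POLR1A (12749 bases) and HEATR1 (8447 bases) were lower in replicate 2 of both groups, while NOP10 (554 bases) and NHP2 (865 bases) were higher. The group difference had a correlation of 0.366 with length across the members and 0.284 across all annotated genes, toward higher values of long transcripts in si-152. Across the 82 cytosolic ribosomal protein genes that were tested it was 0.012. The genes are not independent, and they share 4 libraries. NOLC1 (3967 bases) and TCOF1 (5095 bases) are longer than the median member (2760 bases), and so is NCL (4034 bases), which lay on the other side. The part of length in these differences was not tested.

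**Figure D5:**
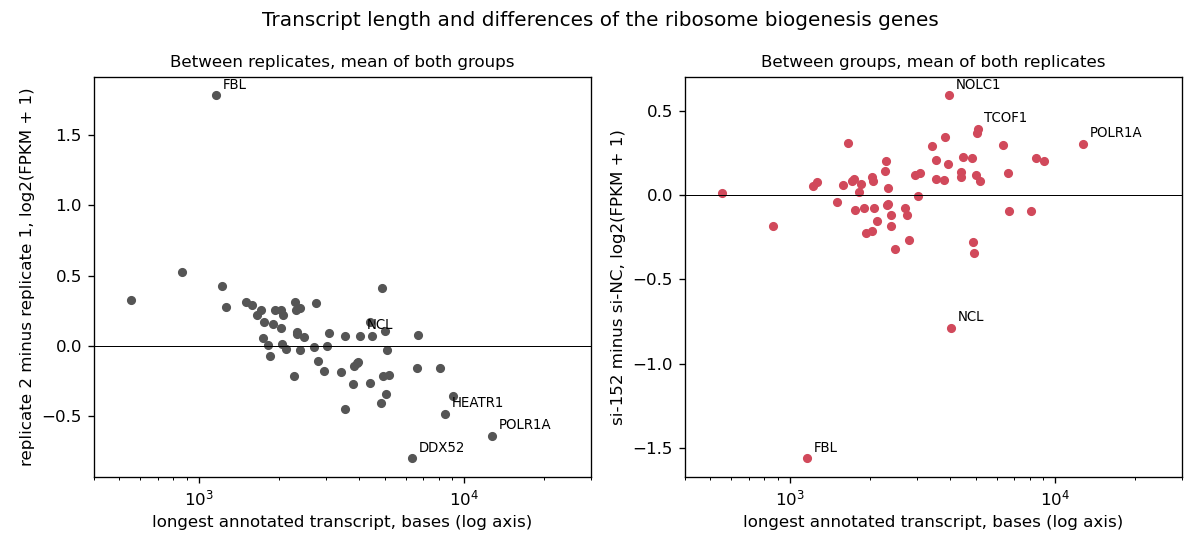
Length of the longest annotated transcript of each of the 59 genes (log axis) against the difference between replicates 2 and 1 (left, mean of both groups) and between si-152 and si-NC (right), both as log2(FPKM + 1). Long transcripts lie lower in the left panel (Spearman -0.689) and somewhat higher in the right panel (0.366), with NCL and FBL below the rest on the right.

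Features the list was not built on were shared by many members. The sequence CACGTG, the E-box bound by MYC with MAX and by related factors, was searched in the RefSeq promoter windows of GRCh38.p14, from 250 bases before to 50 after the annotated start. It reads the same on both strands. Of the 50 members with a window, 21 (42.0%) held it, against 13% of the 8656 tested genes with a window and 8.77% of all 27305 RefSeq genes with one. In 20 of them the motif began within 50 bases of the start. No entry was found for BOP1, NOL10, RRS1, DDX52, NOP58, NOLC1, RRP12, DDX18 and TCOF1. In some other members the motif lay farther from the start, as at 31 in GAR1 and -237 in EBNA1BP2. The windows below are examples from members of different roles, all with the motif within 10 bases of the start. The E-box is in capitals, 5′ to 3′ in the direction of the gene. These windows lie at chr19:39846356-39846385 (FBL, minus strand), chr3:51941892-51941921 (RRP9, minus strand), chr2:28894658-28894687 (WDR43, plus strand), chr12:101280083-101280112 (UTP20, plus strand), chr2:68157885-68157914 (PNO1, plus strand) and chr3:52686026-52686055 (GNL3, plus strand).
FBL: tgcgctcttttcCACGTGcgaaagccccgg
RRP9: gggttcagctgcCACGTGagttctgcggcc
WDR43: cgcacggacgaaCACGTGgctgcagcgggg
UTP20: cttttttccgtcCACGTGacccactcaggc
PNO1: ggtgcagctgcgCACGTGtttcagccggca
GNL3: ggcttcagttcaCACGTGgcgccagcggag

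The first base of the motif lay 6, -5, 3, -10, 9 and 6 bases from the start in these windows, in the order printed. These letters were not found in the window of NCL, which says nothing of other parts of that gene. Members with the motif had a median log2 difference of 0.05 and those without it 0.02, and over the 8656 tested genes these medians were 0.04 and 0.02. CCGGAA, the core recognised by ETS factors, searched on both strands, was in 52.0% of the member windows against 36.4% of the tested genes, and TATAAA was in 4.0% against 7.59%. The ETS core showed member medians of 0.03 with it and 0.02 without it. MYC itself was at 137 and 119 FPKM with si-NC, against 149 and 166 FPKM with si-152, a log2 difference of 0.30 (standard error 0.19, adjusted p = 1.0 by limma) with no overlap.

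Many members are also host genes, whose introns carry snoRNAs that are released when the host transcript is spliced. On the basic GENCODE v29 set, 10 of the 59 (16.9%) held at least 1 snoRNA gene within their span on the same strand, against 1.84% of 10756 tested genes. These were NCL, NOP56, NOP58, DKC1, WDR43, NOL11, POLR1C, PPAN, GNL3 and TSR1. NOP56 held 5 and NCL 3 (SNORA75, SNORD20 and SNORD82). The median log2 difference was 0.09 for the hosts and 0.06 for the other members, so the lower value of NCL was not seen across the hosts. The snoRNAs were not analysed here.

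The rest of the assembly pathway gave a like picture. Over 5 further lists, 118 of 119 genes were tested (SURF6 was below the filter). Of these, 4 had an unadjusted p under 0.05 by limma (3.39%), against 4.38% of all genes tested. On the higher side there were 3, DDX24 included, and on the lower side 1. None passed adjustment (lowest adjusted p = 0.760 by limma). The median log2 difference was 0.02. CIRH1A (UTP4), a UTP-A protein, was at 6.53 and 4.20 FPKM with si-NC, against 8.34 and 14.0 FPKM with si-152, a difference of 0.92 (standard error 0.27). DHX37, the helicase that acts with UTP14A, was at 6.32 and 5.12 FPKM with si-NC, against 10.2 and 8.41 FPKM with si-152, a difference of 0.62 (standard error 0.20). Both had no overlap, and DHX37 differed by the same amount in each replicate (0.62 and 0.62). DDX49, another helicase, was lower, with 24.5 and 30.1 FPKM with si-NC, against 17.9 and 22 FPKM with si-152 (difference -0.43, standard error 0.19). DDX24, the fourth, was near 1 FPKM in every library. By list, the medians were -0.03 for 16 other polymerase I genes, 0.02 for 33 other 40S factors, 0.07 for 46 other 60S factors, -0.05 for 14 exosome genes and -0.0075 for 9 snoRNP assembly factors. The higher median of the 6 polymerase I members was thus not seen in the 16 other genes of that step.

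Among MYC and its partner factors, 10 of 11 genes were tested (MYCN was listed at 0), with a median of 0.19. On the higher side were 8 of the 10, where 6085 of all 11222 genes tested were. MXD3, a repressor that shares the partner MAX, was the 1 gene of that list with an unadjusted p under 0.05 (10.0%, against 4.38% of all genes tested). Its difference was -0.55 (standard error 0.24, adjusted p = 1.0 by limma). The cytosolic ribosomal protein genes, whose products the members assemble, had a negative median. Of 82 tested, 77 were lower, where 5137 of all 11222 genes tested were. In both same-numbered comparisons 72.0% were lower, against 27.3% of all genes tested. The median was -0.19, and it was -0.21 with size factors and -0.03 with quantile normalization. Under quantile normalization the other polymerase I genes (-0.05) and the exosome genes (-0.04) had lower medians than that, and no difference between lists was tested. Only 1 of the 82 ribosomal protein genes had an unadjusted p under 0.05 by limma (1.22%), against 4.38% of all genes tested. Their median transcript length was 1171 bases, against 3363 bases for all annotated genes tested, and the part of length in their values was not tested.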

How the data were processed

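RNA from 2 si-NC and 2 si-152 cultures was sequenced, and the authors normalized the reads per gene to values that were deposited as 1 table per library and are read here as FPKM. Neither the tables nor the labels name that unit, which was taken from the decimals, exact zeros and differing sums. The submitters' processing notes name Trimmomatic, TopHat, HISAT2, HTSeq, DESeq and the build GRCh38, with no version or role, and the tool behind the values is not given in the sources used here. The depth is unknown, so no counting error is given. Rows whose symbols had become dates (28) or were repeated (2) stayed in the fit.

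Values were not rescaled. A pseudocount of 1 was added, and the 11222 genes that reached 1 FPKM in 2 libraries or more went on the log2 scale into limma 3.58.1 under R 4.3.3 (group term only, mean-variance trend, Benjamini-Hochberg over all genes). The fit was tested on simulated data with independent noise. That check does not cover the deviations that same-numbered libraries shared. P-values rest on the spread between 2 libraries a group, with the variance of each gene drawn toward a trend over all genes tested. The study's own test used counts, which were not used here. The members and lists were chosen with earlier results of these data known. All 4 values are given for NCL, for members with an unadjusted p under 0.05, for the 3 largest increases and decreases and for the highest member of each role, and for some others named after their values were seen. Of the other lists, genes with an unadjusted p under 0.05 and MYC are named.

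Positions, 3′-UTRs and snoRNA genes came from GENCODE v29 (GRCh38) and promoters from RefSeq (GRCh38.p14), matched by symbol with Python 3.11.15 and pandas 2.3.3. Alternatives covered the pseudocount, filter, scaling, replicate block, variance trend and each library left out.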

Additional observations from a re-analysis of the deposited data

How the results depend on the processing

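Depth is unknown, and 2 libraries a group limit the precision. Among the 58 members other than NCL, the number with an unadjusted p under 0.05 was 3, and it was 2 or 3 under the pseudocounts, filters, scalings and without the variance trend, but not with the same genes: NOLC1 passed in all of these, TCOF1 in all but the fit without the variance trend, and UTP15 replaced FBL with quantile normalization. The log2 difference of NCL lay between -0.97 and -0.61 with each library left out, and the member median between -0.04 and 0.08. A replicate block in limma gave 11 of 58 members (19.0%; POLR1A, POLR1B, UTP15, UTP14A, NOL6, NOL10, EMG1 and PPAN beside NOLC1, TCOF1 and FBL), beside 1893 of all genes (16.9%), 13 of the 118 other assembly genes and 13 ribosomal protein genes. The lowest adjusted p among the members was then 0.0576, for FBL. With the block and size factors these counts were 12, 2164, 19 and 14. The numbers are shared by the labels only. Libraries with the same number deviated together, with a correlation of 0.52 over genes, but 2 pairs are too few to establish pairing.

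Without a filter on low values, 796 genes had an unadjusted p under 0.05. The ribosomal protein count of 1 was 0 with size factors and 3 with quantile normalization. Signs reversed for NOP10 (-0.011 with size factors, with or without the block), EBNA1BP2 (0.016 with quantile normalization), NPM1 (0.12 with quantile normalization), DDX47 (-0.0034 with size factors) and NOP2 (0.0072 with quantile normalization). FBL lost its unadjusted p under 0.05 with no filter, size factors or quantile normalization.

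With each library left out, where the lone library of a group is assumed to vary like the other group, the counts ran from 310 (without si-152 replicate 1) to 724 (without si-152 replicate 2) for all genes, 1 to 5 for members, 3 to 9 for other assembly genes and 1 to 6 for ribosomal protein genes, the highest of the last pair both without si-152 replicate 2. Members without overlap ran from 15 to 29 above and 7 to 27 below, with fewer libraries to overlap. The shares of all genes tested ran from 25.6% to 47.1% above and from 23.9% to 36.1% below. Log2 differences ran from -0.20 to 0.22 for NOP10, -0.32 to 0.23 for EBNA1BP2, -0.30 to 0.062 for NOP56, -0.23 to 0.048 for NPM1 and -0.34 to 0.10 for PES1. Where no cause is named, the cause was not tested.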
